A study of Mus musculus with 12 samples.

Results

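The countable mtDNA-encoded mRNAs are the 7 mRNAs of the mouse mitochondrial genome with more than a few deposited counts: mt-Nd1, mt-Nd2, mt-Co1, mt-Nd4, mt-Nd5, mt-Nd6 and mt-Cytb. They are 7 of the 13 mtDNA protein genes in the count files, and of 25514 genes in all. They were chosen by their counts and by the absence of an identical nuclear copy over the whole gene, so their level against the other 6 genes is a description and was not tested. The 12 libraries, 3 in each of 4 groups, came from conditionally immortalized proximal tubule (PT) cells. TβRII flox/flox PT cells came from male mice that carried the temperature-sensitive Immorto transgene and floxed Tgfbr2 alleles, Tgfbr2 encoding the type II TGF-β receptor. TβRII−/− PT cells were derived from them with an adenovirus carrying Cre, so each genotype is a single cell line and the deletion cannot be told apart from other differences between the lines. Both were kept at 33 °C with interferon γ and moved to 37 °C 5 days before the experiment. Untreated cells stayed in culture medium with serum, and treated cells received H2O2 for 24 h in serum-free medium, so that H2O2 and serum withdrawal cannot be told apart. The study's methods also give 24 h of serum starvation before the H2O2 was added. The labels give the H2O2 dose as 200 mM, and the study's methods give the same number in micromolar. The labels do not say whether the 3 libraries of a group came from separate cultures. The study's methods state in general that in vitro experiments had independent experiments or biological replicates, so p-values here measure the spread between these libraries, whichever they are.

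Mitochondrial DNA is a small circle with a guanine-rich heavy strand and a light strand. Each strand is transcribed as a long polycistronic RNA by the polymerase POLRMT with TFAM and TFB2M. Excision of the tRNAs between the coding regions releases the mRNAs, which are stabilised by LRPPRC and SLIRP and translated inside the organelle. All mRNAs but mt-Nd6 arise from the heavy-strand transcript, and mt-Nd6 arises from the light-strand transcript. In mammalian cells mt-Nd6 mRNA is known to carry little or no poly(A) tail, and these libraries were made from poly(A)-selected RNA. The proteins are core subunits of the respiratory chain, on which the PT depends for solute reabsorption. mt-Nd1, mt-Nd2, mt-Nd4, mt-Nd5 and mt-Nd6 encode subunits of complex I, the NADH dehydrogenase. mt-Cytb encodes cytochrome b of complex III, and mt-Co1 encodes the catalytic subunit of complex IV, cytochrome c oxidase.

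The starts of the 7 coding regions are shown because they mark what was counted and which strand each mRNA copies. Each is given 5′ to 3′ on the sense strand with the start codon in capitals, from GRCm39, in which all 13 gene intervals are the same as in GRCm38.p6, the build of the files.
mt-Nd1 (chrM:2751-2810, plus strand): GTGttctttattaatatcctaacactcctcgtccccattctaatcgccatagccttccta
mt-Nd2 (chrM:3914-3973, plus strand): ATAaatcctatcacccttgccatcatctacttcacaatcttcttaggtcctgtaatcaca
mt-Co1 (chrM:5328-5387, plus strand): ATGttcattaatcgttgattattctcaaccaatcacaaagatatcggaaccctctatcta
mt-Nd4 (chrM:10167-10226, plus strand): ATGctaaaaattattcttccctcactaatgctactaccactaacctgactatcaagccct
mt-Nd5 (chrM:11742-11801, plus strand): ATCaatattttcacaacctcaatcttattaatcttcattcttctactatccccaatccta
mt-Nd6 (chrM:14011-14070, minus strand): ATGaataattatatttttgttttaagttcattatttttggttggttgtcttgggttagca
mt-Cytb (chrM:14145-14204, plus strand): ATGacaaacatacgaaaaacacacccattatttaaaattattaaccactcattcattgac
The start codons were ATG in mt-Co1, mt-Nd4, mt-Nd6 and mt-Cytb, and GTG, ATA and ATC in mt-Nd1, mt-Nd2 and mt-Nd5. The sense strand of mt-Nd6 was 28.1% guanine and 6.0% cytosine. The heavy-strand mRNAs held between 8.0% guanine in mt-Nd2 and 16.1% in mt-Co1, with 23.8% to 27.7% cytosine.

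The genes lie close together without introns. mt-Nd1 covers chrM:2751-3707, mt-Nd2 chrM:3914-4951, mt-Co1 chrM:5328-6872, mt-Nd4 chrM:10167-11544, mt-Nd5 chrM:11742-13565, mt-Nd6 chrM:13552-14070 on the minus strand and mt-Cytb chrM:14145-15288. The ends of mt-Nd5 and mt-Nd6 share 14 bases on opposite strands, and they are shown because a read over them belongs to either gene by its strand alone. Both lines give the same place, first as mt-Nd5 reads and then as mt-Nd6 reads, with the shared bases in capitals.
mt-Nd5 strand (chrM:13522-13595, plus strand): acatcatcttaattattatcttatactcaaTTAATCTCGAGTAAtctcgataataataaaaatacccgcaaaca
mt-Nd6 strand (chrM:13522-13595, minus strand): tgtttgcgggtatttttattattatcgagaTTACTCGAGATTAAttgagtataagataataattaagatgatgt
The lengths of mt-Nd4 and mt-Cytb leave a remainder of 1 on division by 3. Each ends on a lone T, in capitals here, the first base of a stop codon that the poly(A) tail is known to complete.
mt-Nd4 end (chrM:11485-11544, plus strand): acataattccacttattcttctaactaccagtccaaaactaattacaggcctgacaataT
mt-Cytb end (chrM:15229-15288, plus strand): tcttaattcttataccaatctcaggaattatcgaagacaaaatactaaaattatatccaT
The strand setting of the counting is not given in the sources used here. It was read from 11 nuclear genes nested in an exon of a well-covered gene on the opposite strand. In 9 of the 11 pairs the nested gene held under 0.02 of the per-base counts of the gene over it, with a median of 0.00603, which is how strand-specific counts look. The 2 others, Tnfrsf12a and Sft2d3, held 5.94 and 0.282. A share of mt-Nd6 reads from the opposite strand was not measured.

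A read from a stretch of mtDNA that has an identical nuclear copy has no unique place in the genome. Whether such reads were dropped is not given in the sources used here, and their part in the counts was not tested. In the plot of nuclear copies and counts, windows of 50 bases along each gene were searched for an exact match anywhere in the nuclear GRCm39 sequence. No window of mt-Nd1, mt-Nd6 or mt-Cytb had such a copy. The share was 8.29% in mt-Nd2, 7.61% in mt-Nd5, 51.1% in mt-Co1 and 62.2% in mt-Nd4. It was 100% in mt-Co2, mt-Co3, mt-Atp6, mt-Atp8 and mt-Nd4l, and 99.0% in mt-Nd3. These 6 genes held between 0 and 6 counts in every library, against 3084 to 412003 counts for the 7 members. The 6 low genes are not called low in expression here. If such reads were dropped, the counts of mt-Co1 and mt-Nd4 cover only part of each mRNA.

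**Figure D1:**
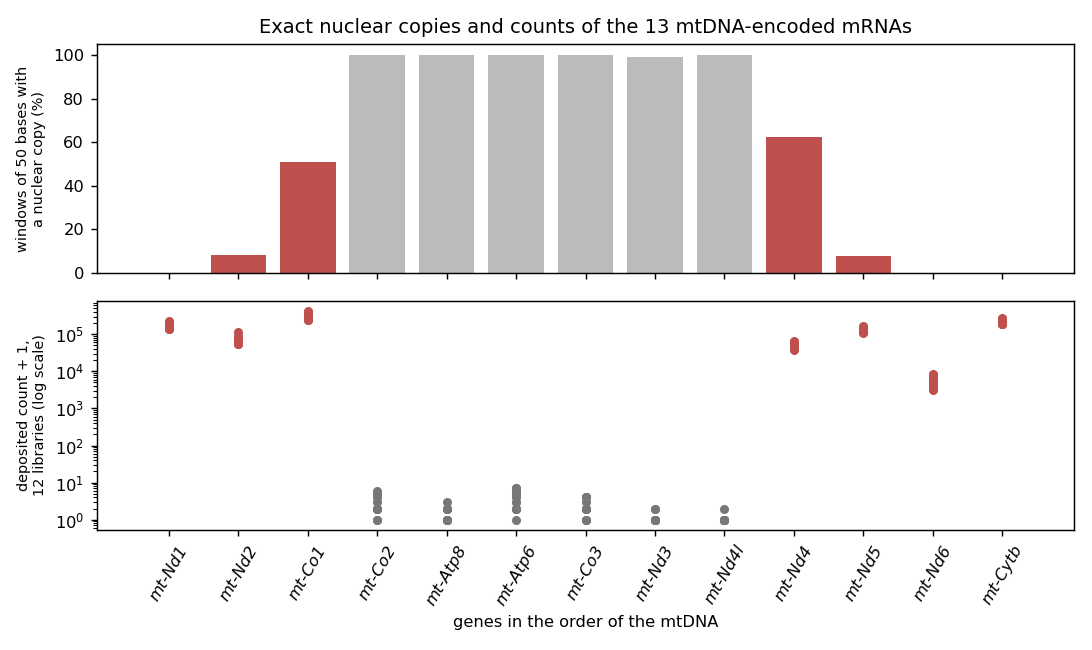
Upper panel, share of 50-base windows of each mtDNA protein gene with an exact nuclear copy (percent). Lower panel, deposited count plus 1 in each of the 12 libraries on a log scale. The 7 members are red, and the 6 genes in gray, at 0 to 6 counts, have nuclear copies over 99.0% or more of their windows.

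Depth and identity of the libraries were as follows. The 25514 genes received between 15870155 and 20857618 counts per library, and the 7 mRNAs took 4.59% to 6.70% of them. Tgfbr2 counts were 7032 to 8791 in untreated TβRII flox/flox cells against 6485 to 6895 in untreated TβRII−/− cells, and 11960 to 13474 against 7156 to 9299 after H2O2. The log2 differences for Tgfbr2 were -0.35 ± 0.07 (SE, adjusted p = 2.81e-05, edgeR) and -0.92 ± 0.07 (adjusted p = 6.62e-14), and these counts over the transcript do not resolve the floxed exons. Of 12 PT markers, 4 reached 10 counts in every library, with Lrp2 and Aqp1 the most abundant, while the PT transporters Slc34a1, Slc22a6 and Slc22a8 and the regulator Hnf4a stayed at 0 to 2 counts. The summed PT markers ranged from 1250 to 1530 and from 889 to 954 CPM (counts scaled to a total of 1e6 per library) in untreated TβRII flox/flox and TβRII−/− cells, and from 1700 to 1850 and from 969 to 1050 after H2O2. Fibroblast markers summed to 5.29 CPM or less and distal nephron markers to 0.665 or less. Macrophage markers summed to 50.7 to 71.1, nearly all from Csf1r and Cd68, with Adgre1 at 0. Endothelial markers, nearly all Kdr, summed to 7.18 to 7.51 and 27.4 to 34.7 in the untreated lines and to 1.25 to 3.81 after H2O2. The part of these differences in the results below was not tested.

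The order of the 7 mRNAs was set by mt-Co1 at the top and mt-Nd6 at the bottom. Between groups of bulk RNA libraries, a change in the number of mitochondrial genomes and a change in RNA from each cannot be told apart. The study reported more mtDNA copies in TβRII−/− PT cells and mtDNA replication induced by H2O2, which these RNA counts do not measure. Levels between genes were compared per 1000 windows of 50 bases that lack a nuclear copy, in counts normalized by the trimmed mean of M values (TMM). In untreated TβRII flox/flox cells the level of mt-Co1 was 371480 ± 27221 (SD, n = 3), followed by mt-Cytb at 190160 ± 12751 and mt-Nd1 at 169140 ± 10316. mt-Nd4 stood at 89959 ± 8202, mt-Nd5 at 74641 ± 5194 and mt-Nd2 at 67452 ± 4427. mt-Nd6 stood at 7906 ± 791, far under the others, and the part of poly(A) selection in this low level was not tested. The neighbours mt-Cytb and mt-Nd1, and the neighbours mt-Nd5 and mt-Nd2, had overlapping mean ± SD ranges. Per kilobase of the whole annotated gene, mt-Co1 at 175760 fell just under mt-Cytb at 182010, and mt-Nd4 at 32772 fell under mt-Nd2 at 58939, so the places of mt-Co1 and mt-Nd4 in the order depend on which length is used.

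All 7 mRNAs were higher after H2O2 in TβRII flox/flox cells. The question of this comparison was what oxidative stress does to cells with the receptor. The light-strand mRNA mt-Nd6 held 4052, 3779 and 3317 normalized counts in the untreated libraries and 5807, 4737 and 5235 after H2O2. Every treated library stood above every untreated one, a log2 difference of 0.50 ± 0.11 (SE, adjusted p = 0.000534, edgeR quasi-likelihood test with Benjamini-Hochberg adjustment over 12971 genes). mt-Nd2 held 58718, 65812 and 59006 counts untreated and 75877, 80552 and 97107 treated. It had the largest rise of the heavy-strand mRNAs, 0.47 ± 0.09 (adjusted p = 0.000105, edgeR). mt-Nd4 held 44732, 49474 and 41273 counts untreated and 53429, 57438 and 67439 treated, a difference of 0.40 ± 0.09 (adjusted p = 0.000364, edgeR). Treated replicate 3 was the highest of its group for each of the 6 heavy-strand mRNAs.

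The other complex I members rose by like amounts. mt-Nd1 went from 149392, 164309 and 147036 counts to 180591, 185973 and 225036, a log2 difference of 0.36 ± 0.09 (adjusted p = 0.00221, edgeR). mt-Nd5 went from 121543, 131331 and 114361 to 141158, 156186 and 173277, a difference of 0.36 ± 0.09 (adjusted p = 0.00184, edgeR). For both, no treated library overlapped an untreated one. mt-Cytb of complex III went from 202389, 224159 and 198127 to 240090, 253906 and 294481, a difference of 0.34 ± 0.10 (adjusted p = 0.00509, edgeR). mt-Co1 of complex IV had the smallest difference, 0.25 ± 0.10 (adjusted p = 0.0354, edgeR), from 261831, 294445 and 258386 to 299598, 313936 and 356553. Its call was lost without untreated replicate 3 (adjusted p = 0.0547), without treated replicate 2 (0.0549), without treated replicate 3 (0.181) and with only the groups compared (0.115), and that of mt-Cytb without treated replicate 3 (0.0549, all edgeR). All 7 members were called higher, against 21.0% of all genes tested. None of the 7 overlapped between treated and untreated libraries, as for 24.1% of all genes in that direction, and their median difference was 0.36 against 0.01 over all genes. None of the 7 reached the limits used in the study, an unadjusted p of 0.01 with a fold change of 1.5, which 7.56% of all genes passed. The study had already pointed to mtDNA-encoded products in TβRII flox/flox cells under H2O2, so the direction is not independent evidence.

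**Figure D2:**
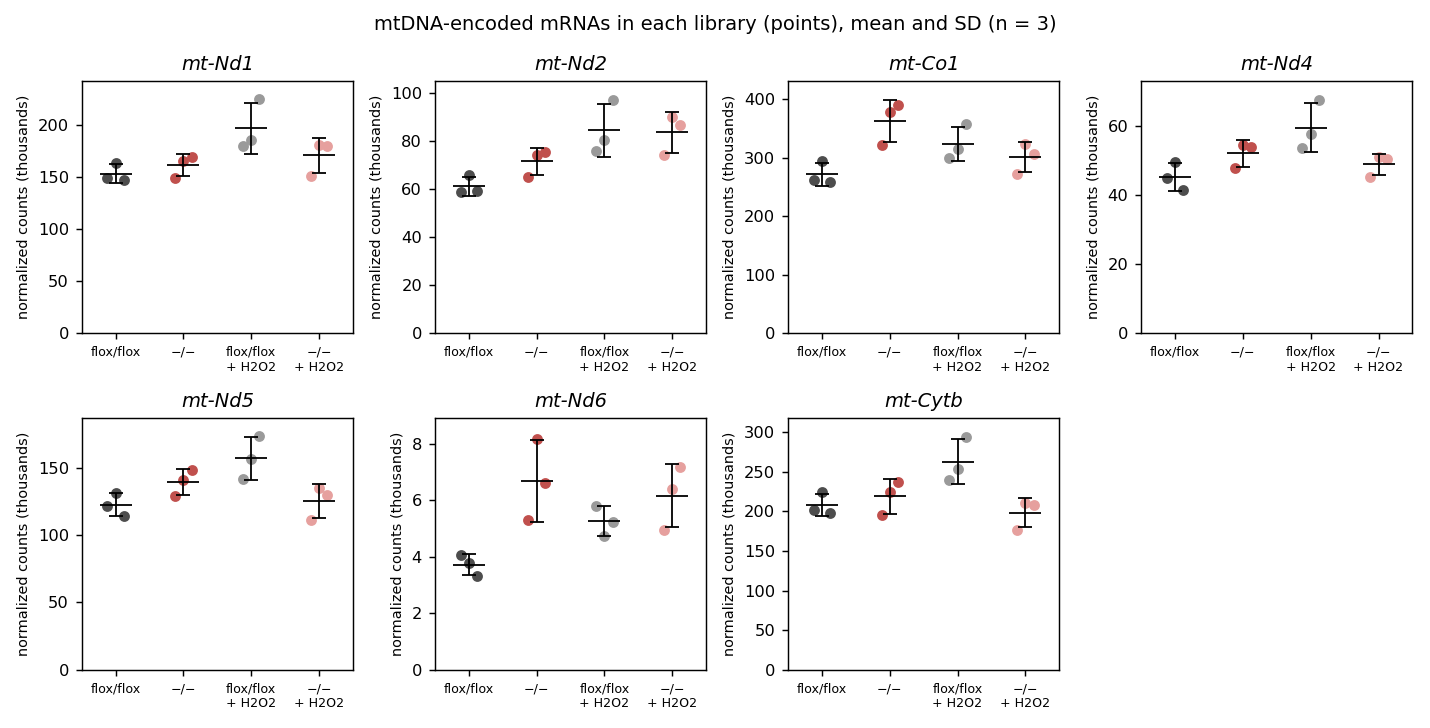
Normalized counts, in units of 1000, of each of the 7 mRNAs in each library, by genotype and H2O2, with the group mean and SD (n = 3). In TβRII flox/flox cells every treated point lies above every untreated point in all 7 panels, and in TβRII−/− cells the points overlap in all 7.

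In TβRII−/− cells H2O2 gave no common direction. mt-Nd2 rose, from 65181, 74165 and 75438 counts to 74116, 89966 and 86727 (log2 difference 0.22 ± 0.09, adjusted p = 0.047, edgeR). mt-Co1 fell, from 320989, 377668 and 389110 to 272502, 323936 and 306586 (log2 difference -0.27 ± 0.10, adjusted p = 0.0265, edgeR). The treated and untreated libraries overlapped for all 7, whereas 52.1% of all genes did not overlap. The differences of the other 5 lay between -0.16 for mt-Nd5 and 0.08 for mt-Nd1 and did not pass the test. Thus 1 of 7 was called higher, against 20.5% of all genes, and 1 of 7 lower, against 19.1%, so the counts are near the background. None passed the study's limits, which 7.77% of all genes did. No call was left without untreated replicate 2 or without treated replicate 3, and 1 was left without untreated replicate 3 or without treated replicate 1 or 2. Over the edgeR and DESeq2 alternatives the call of mt-Nd2 was lost in 6 (adjusted p up to 0.223). That of mt-Co1 was lost in 4 (up to 0.16).

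The H2O2 effects of the lines differed for 5 of the 7 mRNAs. The difference of the effects, as the effect in TβRII−/− minus that in TβRII flox/flox cells, was -0.62 ± 0.16 for mt-Nd6 (adjusted p = 0.00922, edgeR interaction term) and -0.52 ± 0.14 for mt-Co1 (adjusted p = 0.012). It was -0.51 ± 0.13 for mt-Nd5 (adjusted p = 0.00803), -0.49 ± 0.12 for mt-Nd4 (adjusted p = 0.0076) and -0.48 ± 0.13 for mt-Cytb (adjusted p = 0.0197, edgeR). mt-Nd1 at -0.28 and mt-Nd2 at -0.24 had the same sign with adjusted p of 0.188 and 0.246 in edgeR. The share of all genes called in that direction was 6.28%. The number of members called fell from 5 to 3 without replicate 2 of untreated or replicate 1 of treated TβRII−/− cells.

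**Figure D3:**
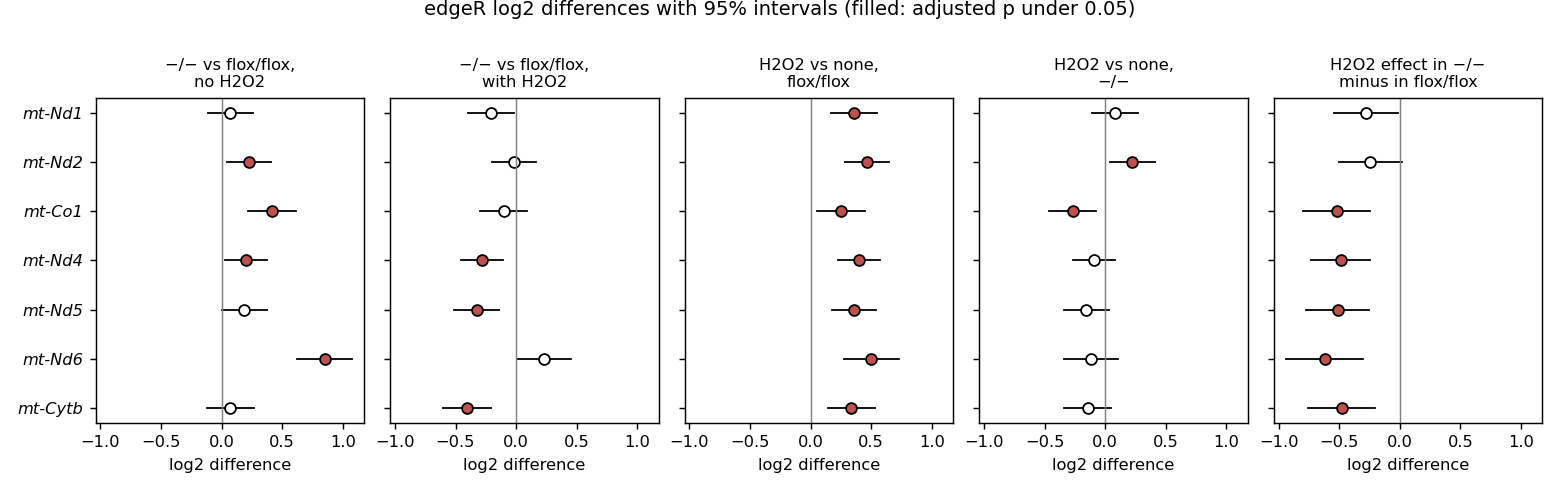
Log2 differences with 95% confidence intervals from edgeR for the 7 mRNAs in 5 comparisons, filled where the adjusted p was under 0.05. With H2O2 in TβRII flox/flox cells all 7 lie between 0.25 and 0.50, and the differences between the lines' H2O2 effects all lie below 0, from -0.62 to -0.24.

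Without H2O2 the TβRII−/− line held more of the light-strand mRNA. The comparison asks what differs between the lines at rest. mt-Nd6 stood at 5287, 8176 and 6620 normalized counts in TβRII−/− cells, above the 4052, 3779 and 3317 of TβRII flox/flox cells. The fold was 1.80, a log2 difference of 0.85 ± 0.11 (adjusted p = 6.32e-08, edgeR). Whether poly(A) selection captured mt-Nd6 mRNA alike in both lines was not tested. Replicate 2 of the TβRII−/− cells was the highest, and the groups did not overlap. mt-Co1 was next, at 320989, 377668 and 389110 against 261831, 294445 and 258386 counts, a difference of 0.42 ± 0.10 (adjusted p = 0.00035, edgeR), also without overlap, as for 33.7% of all genes in that direction. mt-Nd2 at 0.23 ± 0.09 (adjusted p = 0.0278, edgeR) and mt-Nd4 at 0.20 ± 0.09 (adjusted p = 0.0371, edgeR) were called with overlapping libraries. mt-Nd5 at 0.19, mt-Nd1 at 0.07 and mt-Cytb at 0.07 were not called. mt-Nd5 became a call in 5 alternatives, among them DESeq2 (adjusted p = 0.033) and total counts in place of TMM (adjusted p = 0.00374, edgeR). In all, 4 of 7 were called higher, against 33.3% of all genes, and none lower, against 31.4%. 1 of 7, mt-Nd6, passed the study's limits, as did 27.0% of all genes. The calls of mt-Nd2 and mt-Nd4 were lost, which left 2, without replicate 1 or 3 of TβRII flox/flox cells and without replicate 2 or 3 of TβRII−/− cells. That of mt-Nd4 alone was lost with only the groups compared (adjusted p = 0.0594, edgeR) and with counts summed over transcripts (0.0591).

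With H2O2, 3 heavy-strand mRNAs were lower in TβRII−/− than in TβRII flox/flox cells. Of these, mt-Nd4 alone had been called higher without H2O2. mt-Cytb held 176920, 210206 and 208067 counts in TβRII−/− and 240090, 253906 and 294481 in TβRII flox/flox cells, a log2 difference of -0.41 ± 0.10 (adjusted p = 0.0004, edgeR). mt-Nd5 held 110781, 134784 and 129902 against 141158, 156186 and 173277, a difference of -0.33 ± 0.09 (adjusted p = 0.00206, edgeR). mt-Nd4 was lower by a difference of -0.28 ± 0.08 (adjusted p = 0.004, edgeR). These 3 did not overlap between the lines, as for 33.7% of all genes in that direction. mt-Nd1 at -0.20 (adjusted p = 0.0519, edgeR), which was called lower in 10 of its 15 alternatives, DESeq2 among them (adjusted p = 0.015), mt-Co1 at -0.10 and mt-Nd2 at -0.02 did not pass the test, nor did mt-Nd6 at 0.23 ± 0.11 (adjusted p = 0.0658, edgeR), with 4951, 6389 and 7170 counts against 5807, 4737 and 5235. Thus 3 of 7 were called lower, against 31.3% of all genes, and none higher, against 35.1%. None passed the study's limits, which 29.8% of all genes did. Scaling to total counts in place of TMM moved the median of all genes to 0.17, ended the calls of mt-Nd4 and mt-Nd5, and turned mt-Co1 and mt-Nd2 to 0.05 and 0.13. It also made mt-Nd6 a call higher in TβRII−/− cells (0.38, adjusted p = 0.00146, edgeR), as did no filter (0.000689), only the groups compared (0.00821) and leaving out replicate 1 of treated TβRII−/− cells (0.0046). Both genotype comparisons share their libraries with the H2O2 comparisons above and are not separate evidence.

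The ratio between the strands does not depend on the scaling of the libraries. It does depend on how much mt-Nd6 mRNA the poly(A) selection captured, which was not measured. The counts on the 6 heavy-strand mRNAs were 207, 246 and 247 times those on mt-Nd6 in untreated TβRII flox/flox cells, and 172, 127 and 162 times in untreated TβRII−/− cells. After H2O2 they were 171, 221 and 232 times in TβRII flox/flox and 168, 155 and 134 times in TβRII−/− cells. The TβRII−/− libraries lay below the TβRII flox/flox libraries in each condition, with H2O2 by a narrow gap (167.8 against 170.6). The mean log2 ratio was lower in TβRII−/− cells by 0.526 over both conditions (two-sided exact permutation test within conditions, p = 0.005, the smallest the 400 arrangements can give). The difference was -0.61 untreated and -0.44 with H2O2, each of which could reach an exact p of 0.1 at the smallest. H2O2 moved the ratio by -0.0894 (exact permutation p = 0.44), with -0.174 in TβRII flox/flox and -0.00520 in TβRII−/− cells. Each of the 6 heavy-strand mRNAs taken singly was lower against mt-Nd6 in TβRII−/− cells, by -0.37 for mt-Co1 to -0.69 for mt-Cytb on the log2 scale (exact permutation tests, adjusted p = 0.015 to 0.03 over 24 ratios). The 6 ratios share mt-Nd6 as denominator, so they are not separate evidence from one another or from the summed ratio. For H2O2 against no treatment none of the 6 passed in the exact permutation tests (adjusted p = 0.15 to 0.84).

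**Figure D4:**
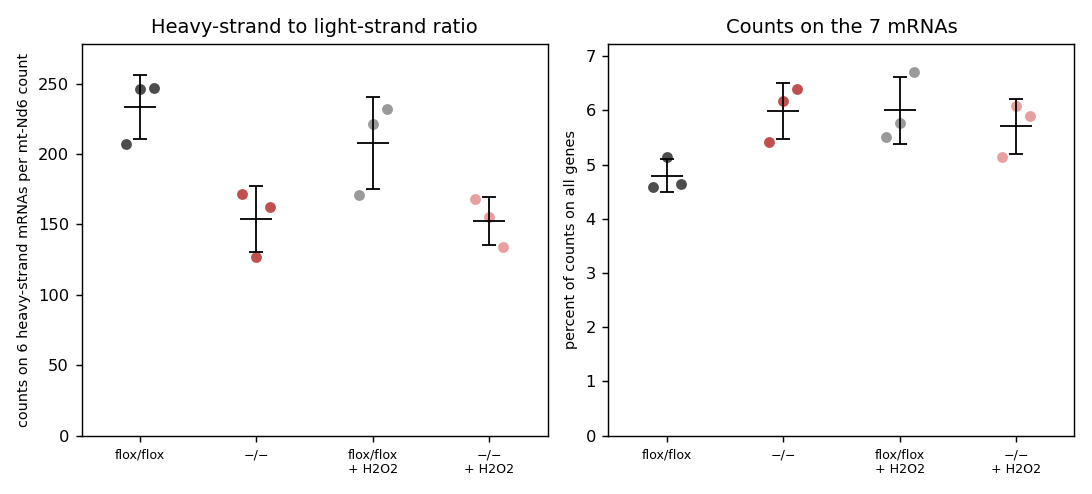
Left, counts on the 6 heavy-strand mRNAs per mt-Nd6 count in each library. Right, percent of the counts on all genes that fell on the 7 mRNAs, with mean and SD (n = 3) in both panels. The ratio lies between 127 and 172 in the TβRII−/− libraries and between 171 and 247 in the TβRII flox/flox libraries, and the share is 4.59% to 5.15% in untreated TβRII flox/flox cells.

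The 7 mRNAs took 4.80% ± 0.306 (SD, n = 3) of the counts in untreated TβRII flox/flox cells and 5.997% ± 0.625 after H2O2, without overlap. In TβRII−/− cells they took 5.99% ± 0.517 untreated and 5.70% ± 0.504 after H2O2, with overlap. Averaged over the lines, the H2O2 difference was 0.457 percentage points (exact permutation p = 0.235), made of 1.20 in TβRII flox/flox and -0.288 in TβRII−/− cells. The genotype difference was 0.451 percentage points (exact permutation p = 0.24), made of 1.20 untreated and -0.294 with H2O2.

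Among the heavy-strand mRNAs the mix itself shifted, with small spread between replicates. mt-Co1 made up 31.4% ± 0.252 of the counts on the 7 mRNAs in untreated TβRII flox/flox cells and 35.8% ± 0.508 in untreated TβRII−/− cells. With H2O2 it made up 29.7% ± 0.420 and 32.2% ± 0.521. mt-Cytb took 24.1% ± 0.0576 and 24.1% ± 0.0316 in TβRII flox/flox cells without and with H2O2, against 21.6% ± 0.313 and 21.2% ± 0.211 in TβRII−/− cells. Against the other 5 heavy-strand mRNAs, mt-Co1 was higher in TβRII−/− cells by 0.23 on the log2 scale, and mt-Cytb and mt-Nd5 were lower, by -0.22 and -0.08 (exact permutation tests, adjusted p = 0.015, 0.015 and 0.03 over 24 ratios). mt-Nd1, mt-Nd2 and mt-Nd4 did not pass, with -0.08, 0.12 and -0.04. These are averages over both conditions. For mt-Nd1 the difference was -0.18 untreated and 0.03 with H2O2, and for mt-Nd2 it was 0.0048 and 0.23. Each mRNA stands in the denominators of the others, so a higher mt-Co1 lowers the other ratios. The ratios are therefore not separate evidence from one another. Against mt-Nd6 instead, the genotype differences of mt-Nd5 (-0.59), mt-Nd1 (-0.59) and mt-Nd4 (-0.56) lay close together.

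With H2O2, mt-Nd2 and mt-Nd1 were higher against the other 5, by 0.26 and 0.14, and mt-Co1 was lower, by -0.17 (exact permutation tests, adjusted p = 0.015, 0.03 and 0.015 over 24 ratios). For mt-Nd2 the shift was 0.14 in TβRII flox/flox and 0.37 in TβRII−/− cells, and its share of the 7 went from 7.07% ± 0.108 to 7.74% ± 0.193 and from 7.07% ± 0.0790 to 8.94% ± 0.0747. mt-Nd4 at 0.05, mt-Nd5 at -0.01 and mt-Cytb at -0.01 did not pass. Here too the ratios share counts and are not separate evidence from one another. The shares of mt-Nd1 were 17.7% ± 0.147 and 18.1% ± 0.398 in TβRII flox/flox cells and 16.0% ± 0.369 and 18.3% ± 0.266 in TβRII−/− cells, without and with H2O2.

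**Figure D5:**
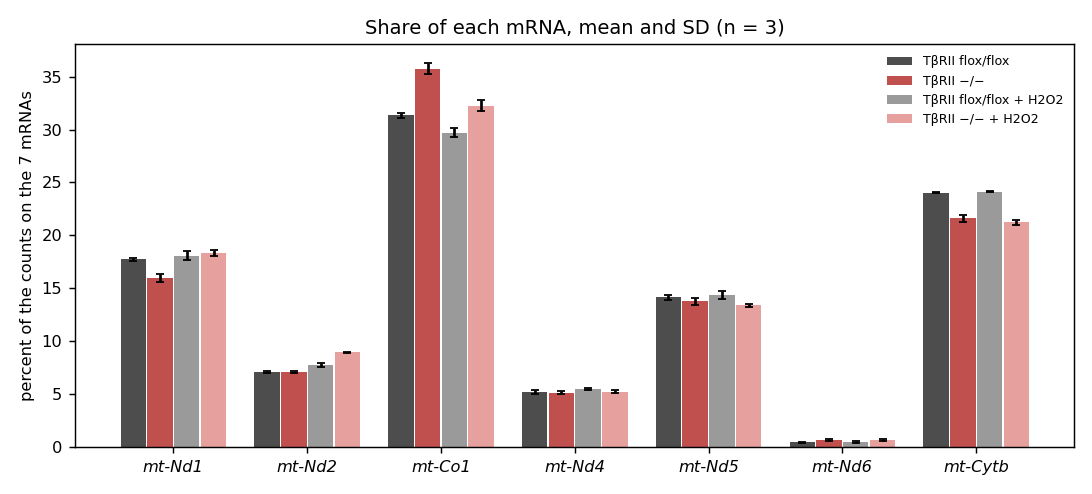
Share of each mRNA in the counts on the 7 (percent, mean and SD, n = 3) in the 4 groups. mt-Co1 is highest in untreated TβRII−/− cells at 35.8%, mt-Cytb is near 24% in both TβRII flox/flox groups and near 21% in both TβRII−/− groups, and mt-Nd2 reaches 8.94% in treated TβRII−/− cells.

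Across the 12 libraries all pairs of heavy-strand mRNAs were positively correlated, as a description without a test, since they share libraries and scaling. Pearson's r of log2 normalized counts between pairs of them was 0.528 to 0.963 with a median of 0.776 over 15 pairs. With mt-Nd6, r was 0.172 to 0.740 over 6 pairs, so the ranges overlap. mt-Co1 had r = 0.740 with mt-Nd6, against 0.528 with mt-Nd1, 0.561 with mt-Nd2 and 0.578 with mt-Cytb. Its r was 0.738 with mt-Nd4 and 0.744 with mt-Nd5. Among 10288 nuclear protein-coding genes with a mean of at least 100 normalized counts, the profiles most like the mean of the 6 were Pigx (r = 0.862), Cfap141 (0.862), Rnf13 (0.849), Cdadc1 (0.826) and Arhgef39 (0.811). Those most like mt-Nd6 were Trim45 (0.912), Dnase1l1 (0.894), Slc38a6 (0.889), Stom (0.886) and Srd5a3 (0.884).

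The nuclear genes that copy mtDNA and transcribe it did not share a direction. The shares of all genes called higher and lower, against which the counts of each list stand, were 33.3% and 31.4% between the untreated lines, 35.1% and 31.3% between the treated lines, 21.0% and 20.5% for H2O2 in TβRII flox/flox cells, and 20.5% and 19.1% in TβRII−/− cells. Of 10 genes of mtDNA transcription, 1 was higher and 1 lower between the untreated lines, and 1 and 2 with H2O2. Tfam, which packages mtDNA and starts its transcription, stood at 645 ± 48.6 normalized counts in TβRII−/− against 457 ± 38.5 in TβRII flox/flox cells untreated (SD, n = 3). The log2 difference was 0.50, and with H2O2 it was 0.57 (adjusted p = 3.24e-06 and 2.63e-07, edgeR). Polrmt, the polymerase, was lower in TβRII−/− cells, 731 ± 23.6 against 862 ± 108 counts untreated, by -0.24 and by -0.31 with H2O2 (adjusted p = 0.0106 and 0.00123, edgeR). For H2O2 against no treatment within a line, the only call in this list was Tfb1m, an rRNA methyltransferase. It was lower by -0.33 in TβRII flox/flox cells (adjusted p = 0.0471, edgeR). Of 8 genes of mtDNA replication, 3 were higher and 3 lower between the untreated lines, and 3 and 1 with H2O2. Polg, the mtDNA polymerase, was lower by -0.32 and -0.59 (adjusted p = 7.71e-05 and 1.54e-09, edgeR). Mgme1, a nuclease of replication, was higher by 0.40 untreated and by 0.25 with H2O2 (adjusted p = 6.7e-05 and 0.00689, edgeR). Top1mt, the mitochondrial topoisomerase, was higher by 0.34 and 0.43 (adjusted p = 0.00237 and 0.000107, edgeR). For H2O2 against no treatment, 2 of the 8 were called in each line, both higher. Polg rose in TβRII flox/flox cells by 0.30 (adjusted p = 0.000394, edgeR), Twnk, the helicase, in TβRII−/− cells by 0.17 (adjusted p = 0.047), and Primpol, a primase, in both lines, by 0.23 and 0.48 (adjusted p = 0.0132 and 4.68e-06). Mgme1 stood at -0.17 in TβRII−/− cells (adjusted p = 0.086, edgeR).

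Of 11 processing genes, 5 were higher and 2 lower between the untreated lines, and 4 and 2 with H2O2. Hsd17b10, a subunit of the RNase P that frees the tRNAs, was higher in TβRII−/− cells by 0.72 and 0.80 (adjusted p = 1.6e-09 and 1.25e-10, edgeR). Fastk, whose mitochondrial form is linked to mt-Nd6 mRNA, was higher by 0.48 and 0.43 (adjusted p = 7.98e-09 and 5.42e-08, edgeR). For H2O2 against no treatment, 1 processing gene was higher and 2 lower in TβRII flox/flox cells, and the 3 called in TβRII−/− cells were lower. Fastkd2 rose in TβRII flox/flox cells by 0.42 (adjusted p = 0.000285, edgeR), and Trmt10c, another RNase P subunit, was lower in TβRII−/− cells by -0.44 (adjusted p = 1.12e-05, edgeR). Of 9 genes of stability, polyadenylation and decay, 2 were higher and 2 lower between the untreated lines, and 2 and 4 with H2O2. Rexo2, which degrades short RNAs, was lower in TβRII−/− cells, by -0.51 untreated and -0.44 with H2O2 (adjusted p = 1.54e-07 and 3.05e-06, edgeR). Rexo2 was also lower with H2O2 than without in both lines, by -0.60 in TβRII flox/flox and -0.53 in TβRII−/− cells (adjusted p = 4.27e-08 and 5.72e-07, edgeR). Pnpt1, an RNA-degrading phosphorylase, was lower in TβRII−/− cells with H2O2 by -0.41 (adjusted p = 6.5e-07, edgeR). Lonp1, a matrix protease, rose with H2O2 in both lines, by 0.20 and 0.24 (adjusted p = 0.00476 and 0.000964, edgeR). For H2O2 against no treatment, 1 gene of this list was higher in each line, with 1 and 2 lower. Lrpprc and Slirp, which stabilise heavy-strand mRNAs, had differences between -0.15 and 0.18 in the 4 comparisons and passed the test in none.

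Of 15 translation genes, 3 were higher and 3 lower between the untreated lines, and 2 and 4 with H2O2. Ptcd1 was lower in TβRII−/− cells by -0.76 and -0.59 (adjusted p = 2.72e-11 and 5.03e-09, edgeR) and Ptcd3, a protein of the small mitoribosomal subunit, by -0.23 and -0.32 (adjusted p = 0.00131 and 2.89e-05). Mtif3, an initiation factor, was lower by -0.46 untreated and -0.41 with H2O2 (adjusted p = 5.56e-05 and 0.000218, edgeR). Mtrfr, a release factor relative, was higher by 0.29 and 0.53 (adjusted p = 0.0125 and 5.17e-05, edgeR). For H2O2 against no treatment, the calls were 4 of the 15 in TβRII flox/flox cells and 2 in TβRII−/− cells, and each was lower. Mtrfr at -0.36 and the elongation factors Gfm1 at -0.16 and Tufm at -0.17 were lower in TβRII flox/flox cells (adjusted p = 0.00814, 0.022 and 0.0352, edgeR). Tsfm, the exchange factor of Tufm, at -0.30 and Ptcd2 at -0.29 were lower in TβRII−/− cells (adjusted p = 0.0295 and 0.0318, edgeR), where Gfm1 stood at -0.12 (adjusted p = 0.0868). Tsfm was also lower in TβRII flox/flox cells, by -0.27 (adjusted p = 0.0473, edgeR). Taco1, a translation activator of mt-Co1, had differences between -0.27 and 0.25 and passed the test in none of the 4 comparisons.

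The nuclear subunits of the same complexes did not rise with the mtDNA-encoded ones after H2O2. The list of complex I was drawn up by Nduf symbols alone. In TβRII flox/flox cells 8 of its 38 genes and 4 of 9 of complex III were called, each lower. Of 14 of complex IV, 1 was higher and 2 lower, where 20.5% of all genes were lower. The median log2 differences of these lists were -0.09, -0.14 and -0.10, against 0.36 for the 7 mRNAs and 0.01 for all genes. In TβRII−/− cells 1 of the 38 was higher and 8 lower, 3 of the 9 were lower, and 1 of the 14 was higher and 3 lower. Between the untreated lines 14 and 5, 5 and 0, and 5 and 0 were higher and lower, with medians of 0.11, 0.21 and 0.07, where 33.3% of all genes were higher and 31.4% lower. Between the treated lines the counts were 19 and 3, 7 and 0, and 6 and 2, with medians of 0.17, 0.22 and 0.09. There 35.1% of all genes were higher and 31.3% lower. Ndufa4, in the complex I list by its symbol, is among the calls higher between the untreated lines (0.35, adjusted p = 2.47e-05, edgeR). It is also among those lower with H2O2 than without in TβRII−/− cells (-0.31, adjusted p = 0.00026, edgeR).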

How the data were processed

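RNA of conditionally immortalized PT cells was sequenced from TruSeq Stranded mRNA libraries, 3 in each of 4 groups taken from the labels. The authors' reads passed through fastp, STAR and featureCounts, on the build GRCm38.p6 and the annotation GENCODE M23. What was deposited are raw counts per transcript. The treatment of reads with several places is not given in the sources used here. Table totals were 3.24 to 3.37 times the gene totals, so a read shared by isoforms was counted on each. Gene counts had been assumed in the design, so the transcript with the highest total stood for each gene. Each mtDNA gene has 1 transcript. Of 106332 transcripts, 104820 matched GENCODE M39, giving 25514 genes. rRNAs and tRNAs of mtDNA were not analysed here.

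Counts were normalized by TMM, filtered with filterByExpr and tested with edgeR 4.0.16 (glmQLFit, glmQLFTest, R 4.3.3) on a mean per group. Calls needed a Benjamini-Hochberg adjusted p of 0.05 over 12971 genes. Normalized counts are scaled to the mean effective library size, 17351835. Ratios and shares used two-sided exact permutations of labels within the other factor. The named nuclear genes are Polrmt, Tfam, Lrpprc, Slirp, Taco1 and, in each comparison, the 3 lowest adjusted p in transcription with replication, in processing with stability, and in translation. Alternatives included DESeq2 1.42.0. The scripts were tested on simulated data. The members, lists and tests were chosen with earlier results of these data known.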

Additional observations from a re-analysis of the deposited data

Results flagged for a closer look

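These results had H2O2 effects that differed between the 2 lines by edgeR's interaction term, given as the log2 effect in TβRII−/− minus that in TβRII flox/flox cells. For mt-Nd6 the difference was -0.62, from an effect of 0.50 in TβRII flox/flox to -0.12 in TβRII−/− cells. For mt-Co1 it was -0.52, from 0.25 to -0.27, and for mt-Nd5 -0.51, from 0.36 to -0.16. For mt-Nd4 it was -0.49, from 0.40 to -0.09, and for mt-Cytb -0.48, from 0.34 to -0.14. Pnpt1, a nuclear gene of mtRNA decay, differed by -0.27, from 0.12 to -0.16 (adjusted p = 0.0412, edgeR). Elac2, the nuclease that cuts the other end of the tRNAs, named after its values were seen, differed by -0.37, from 0.06 to -0.31 (adjusted p = 0.0191, edgeR). Pnpt1 was the only call of 9 genes of stability and Elac2 the only call of 11 processing genes. The other nuclear lists held no call for the interaction, and 6.28% of all genes were called lower. The adjusted p of the 5 mRNAs ranged over the alternatives up to 0.0583 for mt-Co1, 0.041 for mt-Nd4, 0.0482 for mt-Nd5, 0.104 for mt-Nd6 and 0.0879 for mt-Cytb. Groups of 3 libraries are too small for a search for single stray samples.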

How the results depend on the processing

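At the study's limits (unadjusted p 0.01, fold change 1.5) the members called were 1 between the untreated lines, 0 between the treated lines, 0 and 0 for H2O2 in TβRII flox/flox and TβRII−/− cells, and 1 for the interaction. Between the treated lines 5 members were called without a filter on low counts and 5 with only the groups compared. For H2O2 in TβRII−/− cells 1 was called with DESeq2 size factors in edgeR and 1 with counts summed over transcripts. Leaving out each library in turn gave 2 to 5 calls between the untreated lines, 3 to 4 between the treated lines, 5 to 7 and 0 to 2 for H2O2 in TβRII flox/flox and TβRII−/− cells, and 3 to 5 for the interaction. Some single differences changed sign in edgeR, and none was called with its sign changed. Between the treated lines, mt-Nd2 was 0.134 and mt-Co1 0.046 with total counts in place of TMM, and mt-Nd2 ranged from -0.120 to 0.0653 when each library was left out, above 0 without replicate 3 of treated TβRII flox/flox cells (0.0591) and without replicate 1 of treated TβRII−/− cells. For H2O2 in TβRII−/− cells, mt-Nd6 ranged from -0.262 to 0.0506, above 0 without untreated replicate 2 and without treated replicate 1 (0.018). In that comparison mt-Nd6 and mt-Nd5 were called in some alternative though not in the main fit. Their lowest adjusted p over the edgeR and DESeq2 alternatives was 0.0478 and 0.0481. Of 560 recomputed member differences, 498 kept their direction and side of the threshold. The cause of these changes was not tested.

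The replicate numbers did not pair the libraries, since the correlation of same-numbered deviations was -0.128 to 0.0737 over 18 pairs. With the number as a replicate block 4, 4, 7, 2 and 5 members were called in the same order of comparisons, and the strand ratio differed by -0.526 between the lines (exact sign-flip p = 0.0312). The strand ratio was -0.538 with the mean of the 6 log2 counts, -0.594 with mt-Nd5 alone and -0.602 without mt-Co1 (exact permutation p = 0.005 each), and -0.594 to -0.460 without each library in turn. With 3 libraries a group, a single comparison of a ratio cannot go below an exact p of 0.1, and mt-Nd6, at 3084 to 8445 counts, is measured with the fewest reads of the 7.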
